A study of Saccharomyces cerevisiae with 4 samples.

Results

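The amino acid biosynthesis genes and GCN4 are 57 yeast genes, named in a list by pathway and found in the R64 gene table among 6418 annotated genes. They comprise the transcriptional activator GCN4 and 56 enzyme genes for histidine, arginine, lysine, the aromatic amino acids, the branched-chain amino acids, methionine, serine, asparagine, and threonine with its precursor homoserine. Each gene was read over a gene region, which takes every listed nucleosome centred in the open reading frame (ORF) or in the 500 bp before its start. The upstream 500 bp and the ORF were also read apart. All 57 genes were found and measured over the region, of 6134 measured genes in all.

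Acetylation of histone H4 at lysine 16 (H4K16ac) was mapped by chromatin immunoprecipitation and sequencing in budding yeast of 2 genotypes, nhp6ab cells and WT cells, both in exponential growth in rich YPD medium and cross-linked with formaldehyde. The titles give 2 libraries for each genotype, but the deposited values are 1 count per listed nucleosome for each genotype, with both libraries together. The spread between replicates is therefore unknown, no test between genotypes was possible, and every interval printed here covers counting error only. The labels give no strain background, no allele structure of nhp6ab and no selectable marker. The nhp6ab table lists 57674 nucleosomes with 20293261 counts and a median of 354, against 60557 nucleosomes with 26526939 counts and a median of 442 in WT. The ORF of NHP6A had 260 counts in nhp6ab cells against 592 in WT cells, and that of NHP6B had 564 against 882, so counts were listed over both genes in both tables. Without an input library among the files used, counts carry copy number and read placement as well as acetylation.

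Gcn4 is a leucine zipper activator that turns on genes of most amino acid pathways when amino acids run short, a response called general amino acid control. In rich medium its own messenger RNA is translated poorly, because short upstream reading frames in a long leader keep most ribosomes from the GCN4 start. H4K16ac is a mark of open chromatin, made in yeast mainly by Sas2 and also by Esa1 and removed by Sir2. Nhp6A and Nhp6B are closely related HMG-box proteins that bend DNA and work with the histone chaperone FACT.

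Relative to the rest of each table, the genes of the list carried, as a group, about the same H4K16ac in nhp6ab cells as in WT cells. Levels and ratios are scaled to each table's own median or total, so a change shared by all genes could not be seen. The 2 genes farthest from the rest moved in opposite directions, GCN4 with less signal in nhp6ab cells and HIS3 with more. The level of a gene is its mean count per listed nucleosome divided by the median count of its table. The median level over the 57 genes was 1.03 in nhp6ab cells and 1.03 in WT cells, against 1.01 and 1.03 over all measured genes. The log2 ratio of nhp6ab to WT, from counts summed over the region and scaled to the table totals, had a median of 0.01 over the 57 genes and of -0.02 over all measured genes. The middle of the genes lay between -0.09 and 0.16, against -0.16 and 0.11 for all genes (25th and 75th percentiles).

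A gene was called when its log2 ratio was at least 0.32 in size and its counting interval excluded 0. HIS4, LYS21, BAT2, HIS3, CPA1 and ASN1 were called higher, which is 6 of 57, or 10.5%, where 8.72% of all measured genes were called higher. GCN4 alone was called lower, which is 1.75%, where 11.2% of all measured genes were called lower. At a log2 ratio of at least 1 only HIS3 was called higher and no gene of the list was called lower, where 0.326% of all genes were called higher and 1.08% lower. A share of 87.7% of the list lay within 0.32 of 0, against 79.9% of all genes.

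**Figure D1:**
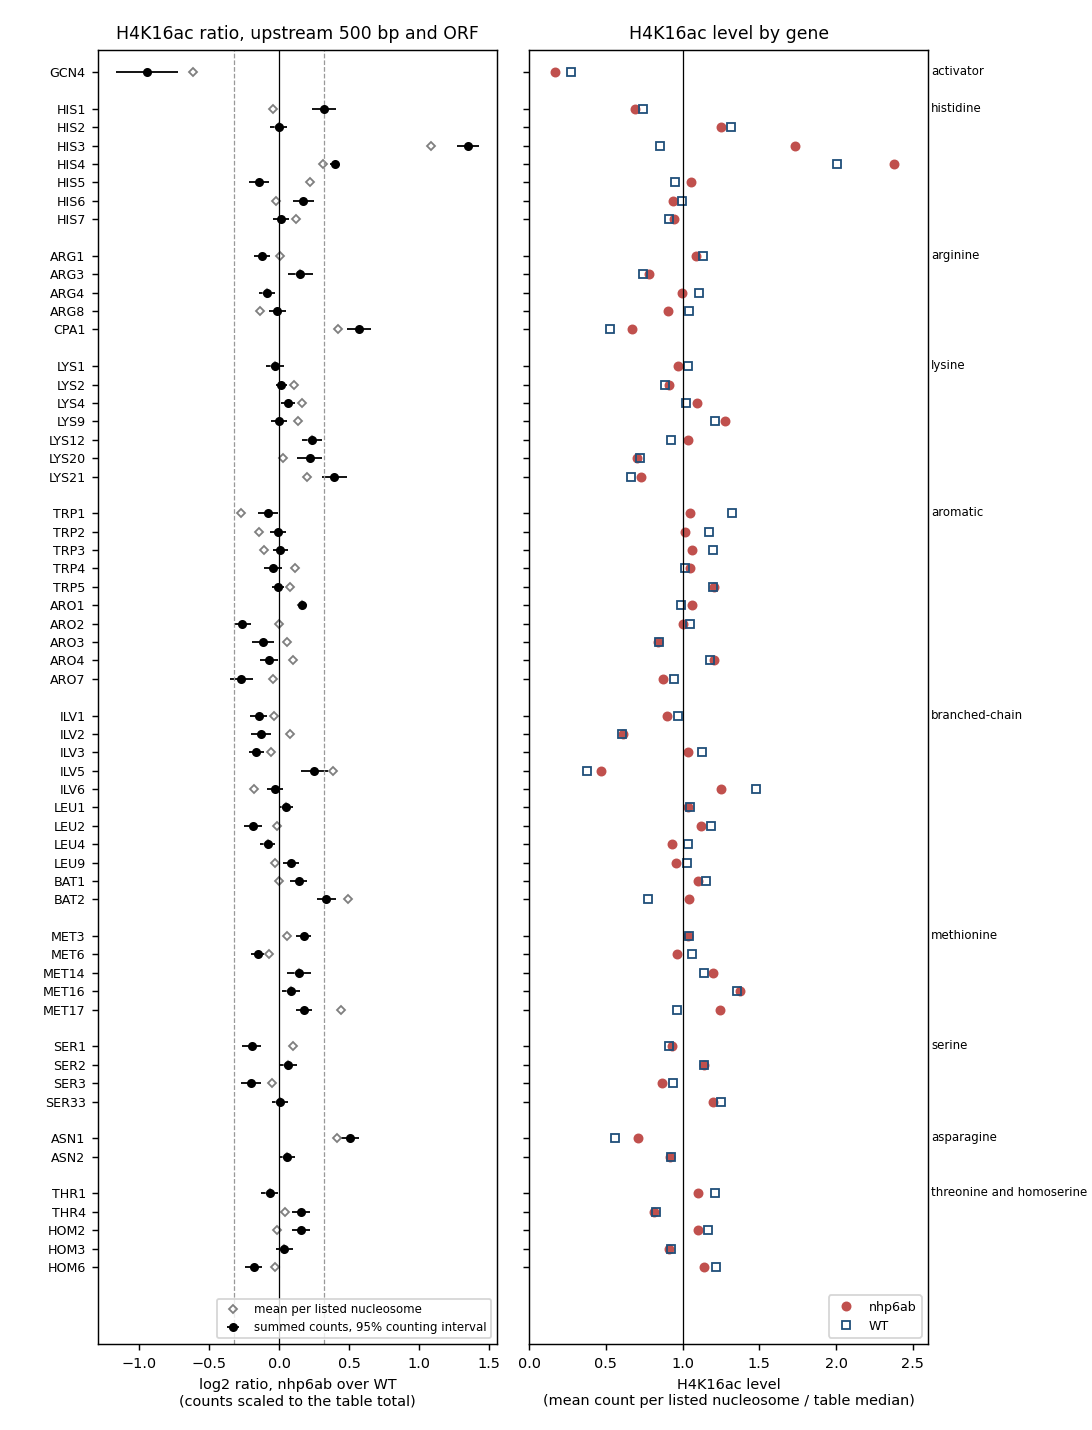
H4K16ac of the 57 genes in order of pathway. Left, log2 ratio of nhp6ab over WT for summed counts with 95% counting intervals (filled points) and for the mean per listed nucleosome (open diamonds), with broken lines at the limits for a call. Right, level of each gene (mean count per listed nucleosome over the table median, no unit) in nhp6ab cells (filled circles) and WT cells (open squares). GCN4 is at the low end of both panels, HIS3 has the highest ratio, and HIS4 has the highest level in both tables.

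GCN4 (YEL009C), the activator of the pathways, lies on chromosome V at 138918 to 139763 on the minus strand (R64). It had 241 counts over 4 listed nucleosomes in nhp6ab cells, against 604 counts over 5 in WT cells. The log2 ratio was -0.94 (95% counting interval -1.16 to -0.72), or -0.62 when the mean per listed nucleosome was compared. All of these counts lay inside the ORF, since neither table lists a nucleosome within 500 bp upstream of the start. That window lies over the leader with the short upstream reading frames.

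GCN4 was already among the genes with the least signal in WT cells. Its level was 0.17 in nhp6ab cells and 0.27 in WT cells, the lowest of the 57 genes in both tables. Only 0.864% of all measured genes had a lower level in nhp6ab cells, and 1.03% in WT cells. Along the ORF the nhp6ab counts were 38, 35, 58 and 110, at 68, 208, 429 and 648 bp from the start. The WT counts were 95, 85, 86, 171 and 167, at 60, 244, 413, 595 and 706 bp. Low signal therefore ran over the whole ORF in both tables, with the higher counts near its end.

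Nucleosomes of the 2 tables were matched one to one where their midpoints lay within 50 bp. The 3 matched nucleosomes in the GCN4 ORF had log2 ratios of -0.94, -0.89 and -0.18. The deficit also covered the nearest listed nucleosomes outside the ORF, with 91 counts in nhp6ab cells against 170 in WT cells about 510 bp upstream, and 33 against 83 at 1072 bp. It went on farther upstream, with 29 counts in nhp6ab cells against 79 in WT cells at the nhp6ab midpoint of -851 bp. At -955 bp the counts were 68 against 168. These 2 matches had log2 ratios of -1.06 and -0.92. At 1237 bp, beyond the ORF end, the counts were 296 and 363, a log2 ratio of 0.09 at levels of 0.84 in nhp6ab cells and 0.82 in WT cells. The 13 other genes within 10 kb had a median ratio of -0.05 and median levels of 0.90 in nhp6ab cells and 0.89 in WT cells. With only 241 and 604 counts GCN4 is the least deeply counted gene of the list, so its size of change is also the least precise.

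**Figure D2:**
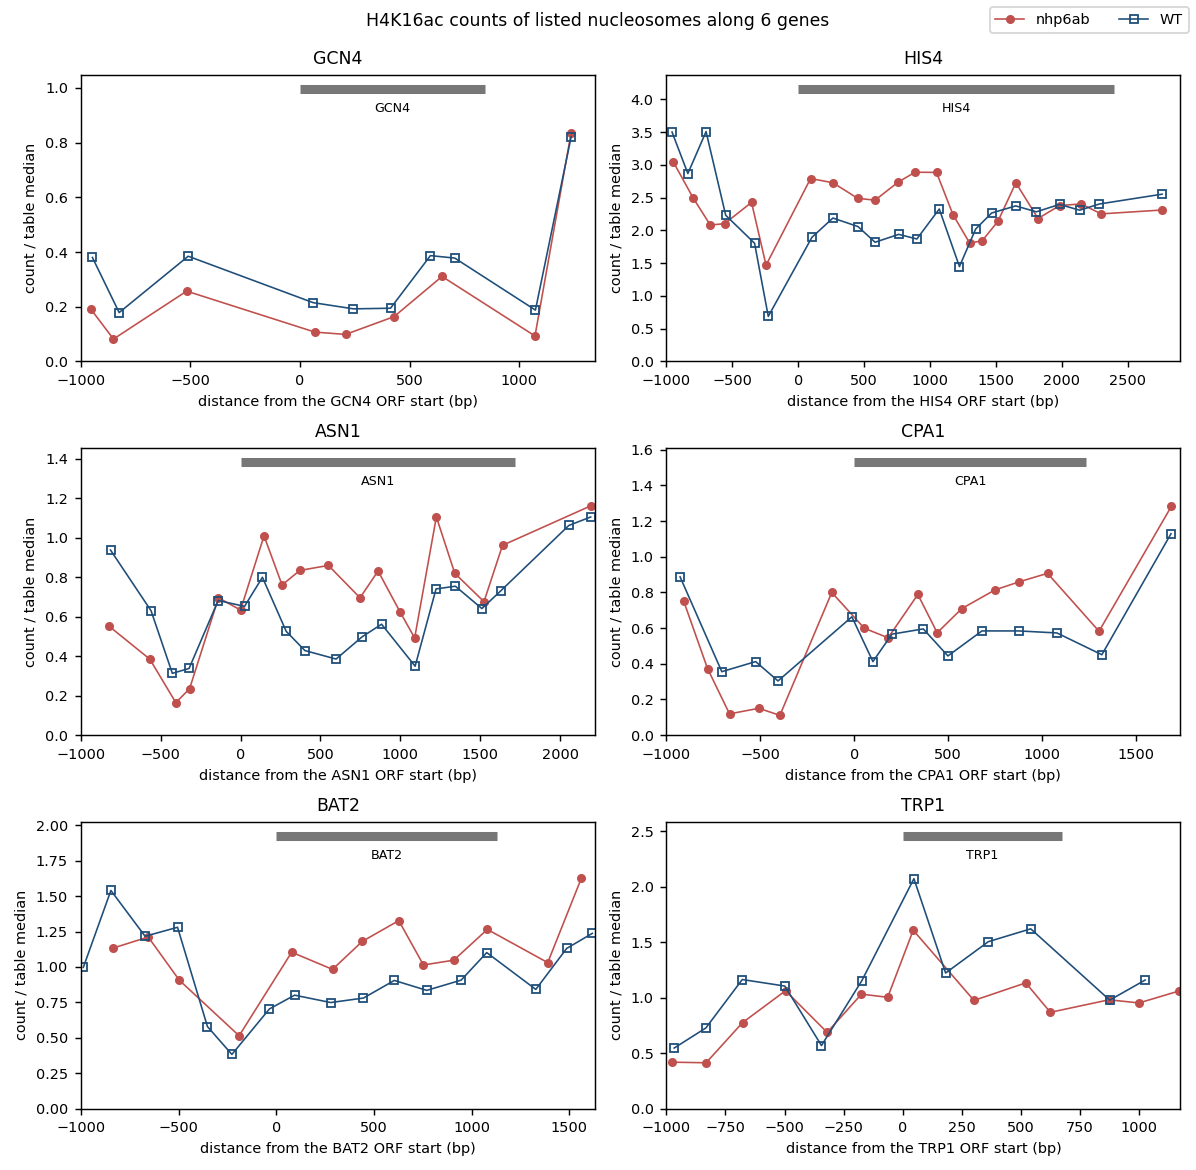
Counts of listed nucleosomes over the table median (no unit) along GCN4, HIS4, ASN1, CPA1, BAT2 and TRP1, by distance of the midpoint from the ORF start in bp. Filled circles are nhp6ab, open squares are WT, and the grey bar is the ORF. The nhp6ab points lie below WT along the ORFs of GCN4 and TRP1, and above WT along much of the ORFs of the other 4 genes.

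Of the 7 histidine genes HIS3 and HIS4 were called higher, or 1 of 6 without HIS3, where 8.72% of all measured genes were. Their median region ratio was 0.17, or 0.09 without HIS3. HIS3 (YOR202W), which encodes imidazoleglycerol-phosphate dehydratase, lies on chromosome XV at 721946 to 722608 on the plus strand. Over its region it had 3675 counts in nhp6ab cells against 1889 in WT cells, a log2 ratio of 1.35 (1.27 to 1.43) at levels of 1.73 and 0.85. The ORF alone had 2397 counts against 1054, a ratio of 1.57 (1.47 to 1.68), and the upstream part 1278 against 835, a ratio of 1.00 (0.87 to 1.13). By the mean per listed nucleosome the ORF ratio was 1.16.

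HIS3 is a common selectable marker of laboratory yeast, and copies placed elsewhere in a genome add reads at its own coordinates. The higher signal was concentrated around the gene. The unbroken run of matched nucleosomes with log2 ratios of at least 0.5 held 7, with midpoints from -435 to 1168 bp of the ORF start. Their ratios lay between 0.69 and 1.17 with a median of 1.08. That limit set the ends of the run, so its contrast with the nucleosomes outside follows in part from the choice. To the left of the run 15 matched nucleosomes lay between -0.15 and 0.71 with a median of -0.02. To the right of it 8 lay between -0.30 and 0.64 with a median of 0.26. Single nucleosomes outside the run thus reached ratios like the lowest inside it, and the side over DED1 stayed above 0 on the whole.

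At -609 bp the counts were 386 in nhp6ab cells against 409 in WT cells, a scaled log2 ratio of 0.30 (0.10 to 0.51). At -275 bp they were 704 against 410, a ratio of 1.17. At 1168 bp they were 418 against 258, a ratio of 1.08, and at 1459 bp 90 against 98, a ratio of 0.26 (-0.17 to 0.69). The rise on the left was therefore gradual, and the run ended past the HIS3 ORF, taking in the starts of the neighbouring ORFs MRM1 and DED1. Over their whole ORFs these neighbours had smaller ratios, 0.30 for MRM1 with 3536 counts in nhp6ab cells against 3748 in WT cells, and 0.39 for DED1 with 2059 against 2047. By the mean the DED1 ratio was 0.74. The 9 other genes within 10 kb had a median ratio of -0.07.

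The listed positions inside the HIS3 ORF also differed. The nhp6ab table lists nucleosomes at 339 and 501 bp, with 549 and 511 counts, that have no match in WT. The WT table lists one at 562 bp with 242 counts that has no match in nhp6ab. Listed nucleosomes covered 98% of the ORF in nhp6ab cells and 61% in WT cells, where a stretch of 256 bp was uncovered. Whether copies of HIS3 differ between the strains was not tested, and the list is given with and without this gene where it matters.

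**Figure D3:**
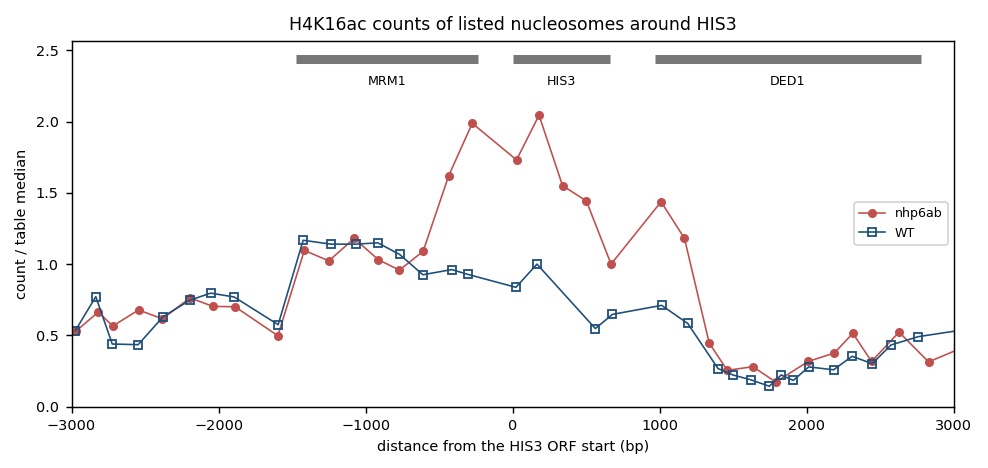
Counts of listed nucleosomes over the table median (no unit) around HIS3, by distance of the midpoint from the HIS3 ORF start in bp, in nhp6ab cells (filled circles) and WT cells (open squares), with the ORFs as grey bars. The matched nhp6ab points stand highest above WT from -435 to 1168 bp, with a median ratio of -0.02 to the left of that run and of 0.26 to the right.

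HIS4 (YCL030C), whose product has 3 separate activities of the pathway, had the highest level of the list in both tables, 2.38 in nhp6ab cells and 2.005 in WT cells. It lies on chromosome III at 65934 to 68333 on the minus strand. Its region had 15163 counts in nhp6ab cells against 15063 in WT cells, a log2 ratio of 0.40 (0.36 to 0.43). Comparing means per listed nucleosome gave 0.31, and a window of 1000 bp upstream gave 0.25, both under the limit. The gain was concentrated in the front of the gene. The nucleosome at -244 bp had 520 counts in nhp6ab cells against 304 at its match in WT cells, a ratio of 1.16. In the first 1000 bp of the ORF all 6 matched nucleosomes had intervals above 0, with a median ratio of 0.53. Beyond 1000 bp 3 of 9 did, with a median of 0.06.

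The high level of HIS4 is shared with its surroundings. It lies between 15 and 85 kb on the left arm of chromosome III, where the median level of listed nucleosomes was 2.06 in nhp6ab cells and 2.06 in WT cells, against 1.01 and 1.03 to the right of that segment. The 41 other measured genes of the segment had a median ratio of -0.00, and 3 of them had a ratio above that of HIS4. In WT cells 27 of the 41 had a higher level than HIS4. The list's other genes on this chromosome had lower levels, 1.12 in nhp6ab cells and 1.18 in WT cells for LEU2, 1.247 and 1.479 for ILV6, and 0.81 and 0.83 for THR4.

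HIS1, which encodes the first enzyme of histidine synthesis, lay at the limit with a region ratio of 0.32 (0.23 to 0.40) and was just below it before rounding. That value came from 9 listed nucleosomes in nhp6ab cells against 7 in WT cells, and by the mean the ratio was -0.04. Its upstream part had 427 counts in nhp6ab cells against 358 in WT cells, over 2 nucleosomes in each table, a ratio of 0.64. HIS2, HIS5, HIS6 and HIS7 had region ratios from -0.14 to 0.17. HIS5, an aminotransferase gene, had 2 listed upstream nucleosomes with 447 counts in WT cells and none in nhp6ab cells, so it has no upstream ratio.

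By summed counts no histidine gene with an upstream ratio lay below 0, where 39.4% of all measured genes lay above 0. The 6 with an upstream ratio lay between 0.00 and 1.00, with a median of 0.46, or 0.27 for the 5 without HIS3. By the mean per listed nucleosome the medians were 0.35 and 0.05. HIS5 is left out, since its 447 upstream counts were all in WT cells. The upstream intervals of HIS2 (-0.06 to 0.17) and HIS7 (-0.16 to 0.16) included 0, and HIS6 was -0.14 by the mean. HIS1, HIS3 and HIS4 were called higher there. By summed counts, in none of the other pathways with 5 or more upstream ratios was the upstream median above 0.

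In the arginine pathway CPA1, the small subunit of carbamoyl phosphate synthetase, was the single region call. CPA1, on chromosome XV at 882899 to 884134, had 2373 counts in nhp6ab cells against 2087 in WT cells, a log2 ratio of 0.57 (0.49 to 0.66). Its level was 0.67 in nhp6ab cells and 0.52 in WT cells, below the table median in both. The ratio came from the ORF, where it was 0.69 (0.60 to 0.79) and where all 5 matched nucleosomes had ratios above 0. Upstream the ratio was -0.02, and the nucleosome near -400 bp had 39 counts in nhp6ab cells against 134 in WT cells, a ratio of -1.39.

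ARG1, ARG4 and ARG8, for other steps of arginine synthesis, had region ratios of -0.12, -0.09 and -0.01. ARG3, which encodes ornithine carbamoyltransferase, had 0.15, with parts that differed by summed counts. Its ORF was called higher at 0.36, with 5 listed nucleosomes in nhp6ab cells against 4 in WT cells and a ratio of 0.04 by the mean. Its upstream part was called lower at -0.71, with 275 counts against 590 over 2 and 3 nucleosomes and a ratio of -0.13 by the mean. From matched nucleosomes neither part was past the limit.

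In the lysine pathway all 7 ORFs had a ratio above 0, from 0.03 for LYS1 to 0.52 for LYS21, while all 7 upstream ratios lay below 0 by summed counts. Over all measured genes 51.8% of ORF ratios and 39.4% of upstream ratios lay above 0. By the mean the upstream ratios of LYS4 and LYS9 were above 0, at 0.12 and 0.11. LYS21, a homocitrate synthase gene, was the only region call, with 2070 counts in nhp6ab cells against 2059 in WT cells and a ratio of 0.39 (0.31 to 0.48), but 0.20 by the mean and 0.20 from matched nucleosomes, and 0.07 with 1000 bp upstream, each of which ends the call. Its close relative LYS20, for the same step, had 1990 counts against 2235 and a ratio of 0.22. Reads of these near-identical genes may be placed in either or lost, and both are thinly listed. Listed nucleosomes covered 57% of the LYS20 ORF in nhp6ab cells and 46% in WT cells, and 54% and 42% of that of LYS21. LYS12, which encodes homoisocitrate dehydrogenase, had an ORF ratio of 0.34 (0.26 to 0.42) over 7 nucleosomes in each table and a region ratio of 0.23. Its ORF ratio fell under the limit with scaling to the median count and from matched nucleosomes.

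The aromatic pathway held no region call. Its 10 genes lay between -0.27 for ARO7, chorismate mutase, and 0.16 for ARO1, the 5-step enzyme of the shared trunk. TRP1, which encodes phosphoribosylanthranilate isomerase and is another common marker gene, had parts of opposite sign. Its ORF had 1622 counts in nhp6ab cells against 2837 in WT cells, over 4 nucleosomes in each, a log2 ratio of -0.42 (-0.51 to -0.33) at levels of 1.15 and 1.60. The counts were 569, 345, 401 and 307 in nhp6ab cells, at 44, 301, 520 and 624 bp from the start. In WT cells they were 916, 540, 665 and 716, at 47, 181, 362 and 541 bp. Only 2 of them were matched, 569 against 916 and 401 against 716, with ratios of -0.30 and -0.45. Its upstream part was called higher at 0.49, with 4 listed nucleosomes in nhp6ab cells against 3 in WT cells and a ratio of 0.07 by the mean. Over the region the ratio was -0.08.

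Among the 11 branched-chain genes BAT2, the cytosolic branched-chain aminotransferase, was the only region call, with 3308 counts in nhp6ab cells against 3423 in WT cells and a ratio of 0.34 (0.27 to 0.41). It fell short of the limit at 0.30 with 250 bp upstream and at 0.27 with scaling to the median count, and was -0.06 with 1000 bp upstream. Its ORF had 2805 counts against 2687, a ratio of 0.45 (0.37 to 0.53), and all 7 matched nucleosomes there lay above 0. The level of the region was 1.04 in nhp6ab cells and 0.77 in WT cells. BAT1, the mitochondrial counterpart, had a ratio of 0.14 at levels of 1.10 in nhp6ab cells and 1.15 in WT cells.

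ILV5, which encodes acetohydroxyacid reductoisomerase, had the lowest level of the list after GCN4, 0.47 in nhp6ab cells and 0.38 in WT cells, with a ratio of 0.25 (0.15 to 0.35). It lies on chromosome XII, whose genes had a median ratio of 0.37, while the medians of the other chromosomes lay between -0.06 and 0.01. Set against that median, ILV5 stood at -0.12, and MET17, the list's other gene on chromosome XII, at -0.20. ILV2, acetolactate synthase, had a level of 0.61 in both tables. LEU2, also a common marker, had a region ratio of -0.19 with 3164 counts in nhp6ab cells against 4702 in WT cells, and -0.02 by the mean.

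The methionine and sulfate assimilation genes MET3, MET6, MET14, MET16 and MET17 lay between -0.15 and 0.18 with no region call. MET16, which encodes phosphoadenylylsulfate reductase, had the highest level of the 5 at 1.37 in nhp6ab cells and 1.35 in WT cells. MET17, used as a marker in some strains, had 4401 counts in nhp6ab cells against 5092 in WT cells, and levels of 1.24 and 0.96. The 4 serine genes lay between -0.20 and 0.06, and the 5 genes of threonine and homoserine between -0.18 and 0.16, with no region call in either group.

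The 2 asparagine synthetase genes differed in size of ratio. ASN1, on chromosome XVI at 822620 to 824338, had 4031 counts in nhp6ab cells against 3708 in WT cells, a log2 ratio of 0.51 (0.44 to 0.57) at levels of 0.71 and 0.56. Its ORF had a ratio of 0.61, and all 12 matched nucleosomes there lay above 0, 9 of them with an interval above 0. ASN2 had 4234 counts against 5320, a ratio of 0.06 (-0.00 to 0.12) at levels of 0.92 and 0.93. ASN1, like CPA1, thus had low signal in WT cells and more in nhp6ab cells over the ORF, with an upstream ratio of -0.22.

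The parts of the genes differed more than the genes as wholes. Upstream ratios could be formed for 54 of the 57 genes and had a median of -0.16, against -0.09 for all measured genes. Of these 54 genes, 19 were called lower, which is 35.2%, where 30.6% of all genes were called lower upstream. The 6 called higher make 11.1%, where 14.4% of all genes were called higher. Both shares lay near those of all genes. In the ORF the median was 0.07, against 0.01 for all genes. There 8 of 57 genes were called higher, HIS3, HIS4, ARG3, CPA1, LYS12, LYS21, BAT2 and ASN1, where 11.5% of all genes were. By the mean per listed nucleosome HIS4, ARG3 and LYS21 fell under the limit, and from matched nucleosomes these and LYS12 did. With scaling to the median count HIS4, ARG3 and LYS12 did. Only GCN4 and TRP1 were called lower in the ORF, where 11.1% of all genes were.

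The upstream ratio was below the ORF ratio of the same gene in 41 of 54 genes, or 75.9%, against 59.6% of all genes with both. The median difference, upstream minus ORF, was -0.24 in the list and -0.11 over all genes. By the mean per listed nucleosome it was also below in 41 of 54 genes, against 62.8% of all genes, with a median difference of -0.15 against -0.09. The 105 matched upstream nucleosomes of the list had a median ratio of -0.11, and 66.7% lay below 0, against 56.9% over all coding genes. The 458 matched ORF nucleosomes had a median of 0.05, and 39.7% lay below 0, against 41.4%.

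**Figure D4:**
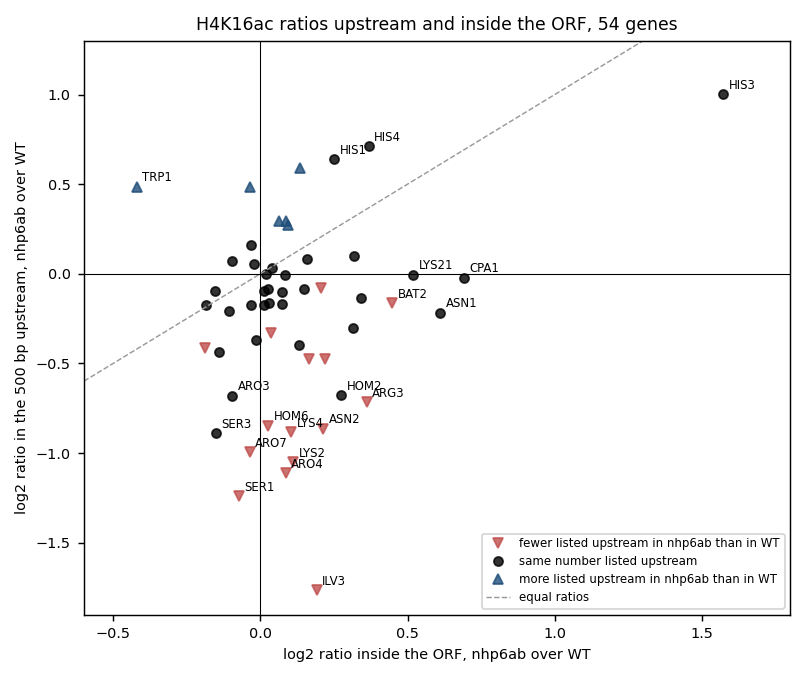
Log2 ratio of nhp6ab over WT in the 500 bp upstream of each gene (vertical axis) against that in its ORF (horizontal axis), from counts scaled to the table totals, 1 point a gene for the 54 genes measured in both. Triangles pointing down mark genes with fewer nucleosomes listed upstream in nhp6ab cells than in WT cells, triangles pointing up those with more, and circles those with the same number. Most points, 41 of 54, lie below the line of equal ratios. HIS3 is at the upper right.

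How many nucleosomes were listed upstream mattered for these sums. In 17 of the 57 genes the nhp6ab table lists fewer nucleosomes in the 500 bp than the WT table, in 6 more, and in 34 the same number. The list had 117 upstream nucleosomes in nhp6ab cells against 131 in WT cells, and all coding genes had 11804 against 12663. How many of all genes had fewer listed was not counted. Of the 19 genes called lower upstream, 13 had fewer listed in nhp6ab cells. By the mean per listed nucleosome 8 of the 54 genes with an upstream ratio were lower past the limit, where 17.5% of all genes were. Of these 8, 7 were among the 19. The other was LEU9, at 0.30 by the sum and -0.70 by the mean. In 15 of the 17 genes with fewer listed, a WT nucleosome had no match in nhp6ab cells. In ILV3 and LYS9 every WT nucleosome had a match, part of which fell outside the window. ILV3, which encodes dihydroxyacid dehydratase, had 462 counts over 1 upstream nucleosome in nhp6ab cells against 2052 over 3 in WT cells, a ratio of -1.76 by the sum and -0.18 by the mean. Its 3 WT nucleosomes had nhp6ab matches with ratios of -0.41, -0.41 and -0.20, and 2 of these lay beyond the window edges after shifts of 38 and 44 bp. LYS2, another common marker, had 533 counts over 2 nucleosomes against 1442 over 4, and -0.05 by the mean.

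For 6 of the 19 the same number was listed in both tables, so the lower sum was a lower mean count per listed nucleosome. They were ILV6, ARO3, HOM2, SER3, MET6 and ARG4. Centring on the median gene of the same chromosome left ARO3, HOM2 and SER3 past the limit, and brought ILV6 to -0.32, just short of it, MET6 to -0.29 and ARG4 to -0.22. SER3, a phosphoglycerate dehydrogenase gene, had 148 counts in nhp6ab cells against 358 in WT cells at its single upstream nucleosome, a ratio of -0.89 (-1.17 to -0.61). HOM2, aspartate semialdehyde dehydrogenase, had 318 against 664 at its single one, a ratio of -0.68 (-0.87 to -0.48). ILV6, the regulatory subunit of acetolactate synthase, had 1174 against 2024 over 3, a ratio of -0.40. Its nearest upstream nucleosome lay at -153 bp in nhp6ab cells and at -21 bp in WT cells, so the 3 were not all the same nucleosomes. The first in its ORF lay at 11 bp in nhp6ab cells and at 162 bp in WT cells. Its ORF ratio was 0.13, with 7 listed against 6, and its region ratio was -0.03. Whether a shift across the window edge, as at ILV3, lowered the ILV6 sum was not tested. SER1, an aminotransferase gene, was low by both readings, with 207 counts over 2 nucleosomes against 639 over 3, a ratio of -1.24 by the sum and -0.65 by the mean.

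Level along the genes followed a common shape in both tables, with a dip just upstream of the start. The median level of the list's nucleosomes within 250 bp upstream was 0.76 in nhp6ab cells and 0.79 in WT cells, over 44 and 56 nucleosomes, against 0.90 and 0.96 over all coding genes. From the start to 500 bp it was 1.10 in nhp6ab cells and 1.11 in WT cells, close to the 1.09 and 1.11 of all coding genes. The nearest listed nucleosome upstream lay a median of 174 bp before the start in nhp6ab cells and 124 bp in WT cells, against 160 and 133 bp over all coding genes. The gap between the midpoints on either side of the start was 236 bp in nhp6ab cells and 199.5 bp in WT cells, against 222 and 195 bp. Of the upstream nucleosomes of the list, 10.3% in nhp6ab cells and 18.3% in WT cells had no match in the other table, against 11.3% and 16.04% over all coding genes.

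Other genes of the same control system, 61 in all and none of them in the list of 57, were read as a comparison. They are further amino acid enzymes, the factors that set GCN4 translation and turnover, and other pathway regulators. Their median region ratio was 0.03, with 7 called higher, 4 called lower and 50 without a call, where 8.72% of all measured genes were called higher and 11.2% lower. Of the 7 called higher, 4 lie on chromosome XII. The highest ratios were 0.53 for ALT1, an alanine transaminase gene on chromosome XII, and 0.44 for SUI3, which encodes a subunit of the translation initiation factor eIF2. The lowest were -0.49 for SUI2, another eIF2 subunit, and -0.36 for GCD6, a subunit of the exchange factor eIF2B.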

How the data were processed

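The authors deposited 1 table of read counts per listed nucleosome for each genotype, per the file headers, with both libraries of a genotype in 1 column. Reads went through FastQC and Bowtie with build R64, per the submitters' processing notes. How nucleosomes were called, filtered and pooled is not given in the sources used here. The planned count test was replaced by ratios for this reason. Listed nucleosomes can overlap, so a read may count more than once. Counts were summed by midpoint, scaled to the table total and compared as log2 nhp6ab over WT with an exact conditional binomial (Clopper-Pearson) 95% interval, for genes with at least 100 counts over both tables and a count in each. An unlisted nucleosome is not a count of 0. The counting error at the median count was 5.31% in nhp6ab cells and 4.76% in WT cells. Gene positions came from RefSeq (R64). Members and lists were chosen with earlier results of these data known. Named genes were all members, NHP6A, NHP6B, the neighbours of HIS3, and the 2 highest and 2 lowest of the other pathway genes. Alternatives changed the scaling, summary, matching, window, limit, count minimum and members. Scripts, tested on simulated data, used Python 3.11.15, numpy 2.4.6, pandas 2.3.3, scipy 1.17.1 and matplotlib 3.10.9.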

Additional observations from a re-analysis of the deposited data

How the results depend on the processing

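Of 116 alternative values for the list as a whole, 103 stayed close to those reported, and 13 moved. Scaling to the median count lowers every ratio by 0.07. It gave 3 members called lower over the region (16.1% of all genes), 5 called higher in the ORF (8.68%), and a median region ratio of -0.0562 (-0.09 over all genes). Centring each gene on those within 10 kb, an alternative chosen after seeing the data, gave a median of 0.0759. With at least 1000 counts 0 members were called lower over the region (10.5% of all genes), since GCN4 was no longer measured, 12 were lower upstream (29%) and 1 in the ORF (8.9%). With a limit of 1.5-fold 1 member was higher over the region (2.15% of all genes), 3 were higher (3.39%) and 1 lower (4.15%) in the ORF, and 12 were lower upstream (18.4%). By the mean per listed nucleosome 8 were lower upstream (17.5%). Without 5 common marker genes, HIS3, LEU2, TRP1, LYS2 and MET17, 1 was lower in the ORF (11.1%). Single values were followed only for genes called in the part read. Of these 345 values, 9 changed sign. BAT2 did over the region with 1000 bp upstream (-0.0626), and TRP4 upstream from matched nucleosomes (0.0551). Upstream by the mean ARO1 (0.11), LYS4 (0.12), TRP4 (0.25), ARO2 (0.00374), ASN2 (0.14), LYS9 (0.11) and ARO7 (0.00537) did. Genes without a call could change sign too, as LEU9 did upstream, from 0.30 by the sum to -0.70 by the mean. The cause was not tested.

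No paired analysis was possible because each table holds both replicates of a genotype in 1 column, and leaving out a replicate was not run for the same reason. The planned search for the Gcn4 motif was not run, since no sequence was used here. Depth limits GCN4 most.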

Other observations

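Of the 57 genes, 9 had a level below 0.8 on average over both tables, LYS20, LYS21, GCN4, HIS1, ARG3, ILV5, ILV2, CPA1 and ASN1. Their median region ratio was 0.25, the value of ILV5, and 7 of the 9 lay above 0. Over all measured genes below that level, 1089 in number, the median ratio was -0.11 and 35.5% lay above 0. Of the other 48 genes of the list 23 lay above 0. By the mean per listed nucleosome the median of the 9 was 0.15, against -0.05 over all genes below that level. By the mean 7 of the 9 also lay above 0, with LYS20 at 0.03 and HIS1 at -0.04. ILV5 lies on chromosome XII and stood at -0.12 against the median of that chromosome. The split at a level of 0.8 was made after the values were seen and was not tested.

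The upstream windows of 29 of the 57 genes overlap another coding ORF, and those of HIS2, LEU2 and MET17 hold a tRNA gene, so counts there belong to more than one feature. No listed nucleosome was counted for more than 1 gene of the list.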
